A study of Mus musculus with 16 samples.

Results

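The clustered protocadherins are the genes of 3 neighbouring clusters, alpha, beta and gamma, on mouse chromosome 18. They were taken from the gene tables as all protein-coding genes whose GRCm38 symbol begins with Pcdha, Pcdhb or Pcdhg, which gave 57 of the 54532 genes in the table: 14 in the alpha cluster, 22 in the beta cluster and 21 in the gamma cluster. Of 58 symbols that matched, Pcdhgb8 is annotated as a polymorphic pseudogene and was left out. Among the 57 genes are the 5 C-type isoforms, Pcdhac1 and Pcdhac2 at the end of the alpha cluster and Pcdhgc3, Pcdhgc4 and Pcdhgc5 at the end of the gamma cluster.

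Clustered protocadherins are cadherin-like proteins of the neuronal surface that bind the same isoform on a facing membrane. In many neurons most isoforms are chosen stochastically, each from its own promoter, through binding of CTCF and cohesin, so that each cell carries its own combination, whereas C-type isoforms are switched on by cell type. Alpha and gamma isoforms join a variable first exon to constant exons shared by their cluster, and beta isoforms have no constant exons. The combinations serve self-avoidance of dendrites and axons, and among cortical interneurons the gamma cluster, Pcdhgc4 above all, is known for its part in cell survival during development.

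The libraries are bulk RNA-seq of parvalbumin (PV) interneurons, fast-spiking GABAergic neurons of the cortex, fixed in 4% paraformaldehyde for 15 min during dissociation and sorted by GFP and a nuclear dye, with over 20K cells per mouse. The 9 eGFP libraries come from PV-Cre;lsl-eGFP mice and the 7 eGFP-GluA2 libraries from PV-Cre;lsl-eGFP-GluA2 mice, all adults (study mean 113.1 ± 11.6 days) and labelled as biological replicates. GluA2 is the AMPA receptor subunit that makes the receptor impermeable to calcium, and the comparison addresses what its added expression in PV-Cre cells does to their transcriptome. Both groups carry PV-Cre, so the transgene runs wherever this Cre is active, and the controls express eGFP too. Parvalbumin RNA (Pvalb) stood at 223 ± 95.9 TPM (SD, n = 9) in eGFP and 245 ± 104 TPM (SD, n = 7) in eGFP-GluA2 libraries, and Gria2, the gene of GluA2, at 85.2 ± 15.6 against 189 ± 60.1 TPM (transcript abundance scaled for length and library total); reads of the transgene and of the native gene are not separated there. All 10 PV and fast-spiking markers were detected, with a summed level of 1101 to 2380 TPM in eGFP and 1146 to 3132 TPM in eGFP-GluA2 libraries, against 101 to 186 and 93.5 to 227 TPM for 7 markers of other interneuron classes, 30.8 to 48.5 and 35.2 to 61.9 TPM for 9 excitatory markers and 16.1 to 36.9 and 14.0 to 34.9 TPM for 6 astrocyte markers.

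Depth was 7454165 to 15462544 counts. The libraries also differed in the summed CPM (gene counts scaled to the total of their library) of 1450 olfactory and vomeronasal receptor genes. Cortical PV interneurons are not known to use these genes, and their summed CPM serves here as a measure of background. It was 82.4 to 162 CPM in 5 libraries (eGFP replicates 7 to 9, eGFP-GluA2 replicates 6 and 7), 676 to 1277 CPM in 5 (eGFP 5 and 6, eGFP-GluA2 2, 4 and 5) and 1911 to 4148 CPM in 6 (eGFP 1 to 4, eGFP-GluA2 1 and 3), called low, middle and high below. Both groups have libraries at each level. Depth was not separate from this level: it was 13175003 to 15462544 counts in the low libraries and 7454165 to 12119209 in the others.

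The gene models set how well each isoform can be counted. On GRCm38 (GENCODE M21) the alpha cluster runs from 36930184 to 37187661, the beta cluster from 37264938 to 37524479 and the gamma cluster from 37661793 to 37841873 of chromosome 18, all on the plus strand. Of the 22 beta genes 18 have a single exon, and the beta genes have 36.5 to 100% of their exon bases to themselves. Alpha genes have 4 to 6 exons in their longest model and 7.0 to 51.4% bases of their own, gamma genes 4 to 5 exons and 0 to 68.5%, because the constant exons belong to every gene of the cluster in the annotation. The deposited gene counts and the reads recovered from the deposited normalized values also differ by cluster. Whether the shared exons cause this was not tested. Recovered reads per count had a median over genes of 1.04 in the beta cluster, 1.52 in the alpha cluster and 1.64 in the gamma cluster, and 10 genes exceeded 2.

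**Figure D1:**
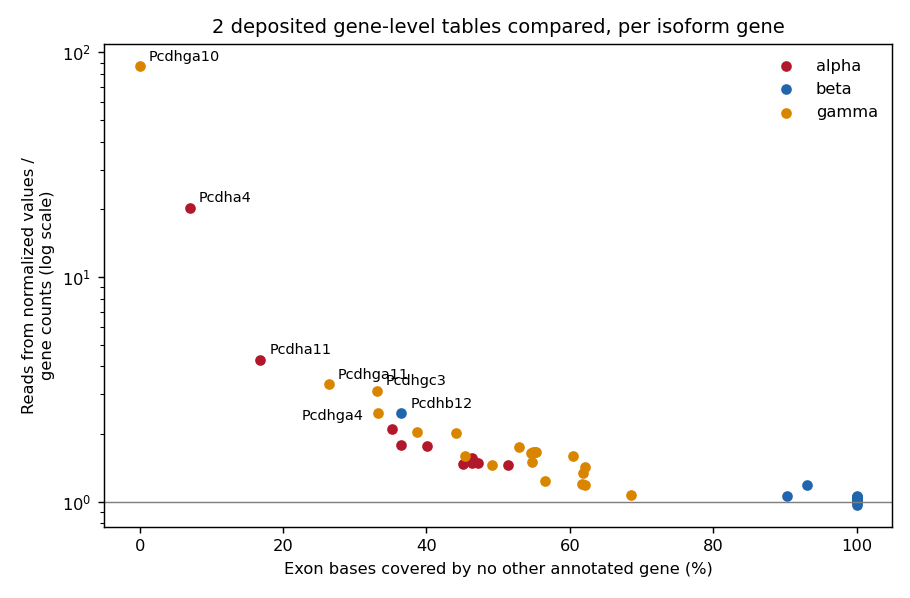
Reads recovered from the deposited normalized values divided by the deposited gene counts, both summed over 16 libraries (log scale), against the percentage of exon bases that no other annotated gene covers; each point is 1 isoform gene, coloured by cluster. Beta genes with all bases to themselves lie near 1, Pcdha4 (7.0% of its own) at 20.4 and Pcdhga10 (0%) at 87.

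Pcdhga10 is the extreme case, and its exons are wholly covered by constant exons, by antisense Gm26672 and by read-through models such as Gm37013. It had 3 counts over all 16 libraries, 0 in 13 of them, but 261 recovered reads. Pcdha4 overlaps the read-through model Gm42416 and antisense Gm38225 and had 20.4 recovered reads per count, Pcdha11 4.29, Pcdhga11 3.34, Pcdhgc3 3.11 and Pcdhb12, which overlaps antisense Gm37446, 2.47. With the 2 quantifications this far apart their levels are uncertain, and a low count of theirs is no measure of low expression. To compare genes, 2 scales are therefore given: TPM, which the authors estimated over whole transcripts, and CPM per kb of a gene's own exon bases, from the gene counts.

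In the alpha and in the gamma cluster the gene with the highest mean was a C-type isoform. Pcdhac2 (ENSMUSG00000102697, chr18:37143503-37187657, 4 exons) was the highest clustered protocadherin in every library. Its level in eGFP libraries was 14.9, 22.3 and 26.5 TPM (lowest, median, highest), and in eGFP-GluA2 libraries 15.3, 22.2 and 45.6 TPM. The mean over all libraries was 23.5 ± 8.06 TPM (SD, n = 16), higher than 88.3% of 21918 protein-coding genes. The 2 highest libraries, eGFP-GluA2 replicates 6 and 7 with 45.6 and 38.04 TPM, stood above all others, while the remaining eGFP-GluA2 libraries lay inside the eGFP range. In bulk RNA a higher level cannot tell more cells that use an isoform from more RNA per cell, here and for every value below.

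Pcdhgc4 (ENSMUSG00000023036, chr18:37815079-37841873), the gamma isoform needed for interneuron survival in development, came next with 14.6 ± 3.77 TPM, above 80.4% of protein-coding genes. Its eGFP libraries had 10.2, 13.4 and 17.4 TPM and its eGFP-GluA2 libraries 12.4, 12.98 and 24.8 TPM (lowest, median, highest). Again eGFP-GluA2 replicates 6 and 7, at 24.8 and 21.5 TPM, were above every eGFP library, and the other 5 were not. Pcdhac2 exceeded Pcdhgc4 in 16 of 16 libraries, by 1.59 ± 0.20 times in TPM (SD) and 2.45 ± 0.26 times per kb of own exon. Pcdhgc4 exceeded the next gene, Pcdhb17, in 16 of 16 libraries, by 2.52 ± 0.23 times in TPM and 2.77 ± 0.29 times per kb of own exon.

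**Figure D2:**
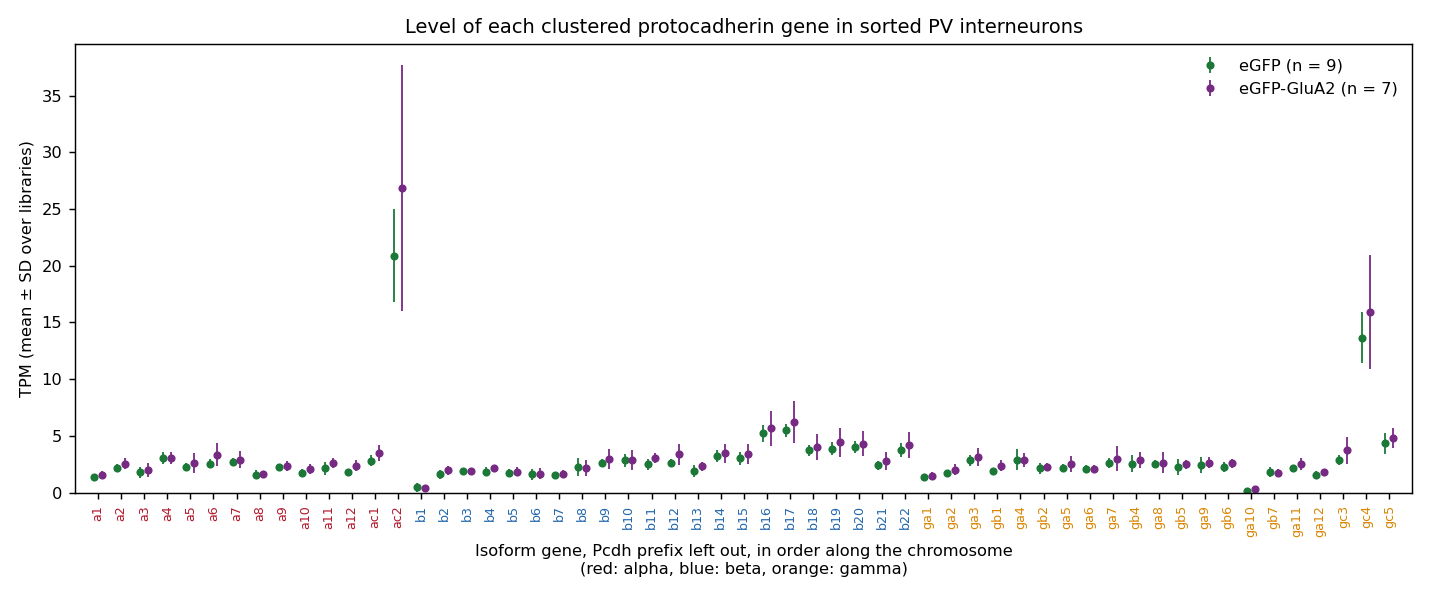
Level of each of the 57 genes in TPM (y axis, mean ± SD over libraries) in the order of the genes along the chromosome (x axis), for 9 eGFP and 7 eGFP-GluA2 libraries. Pcdhac2 and Pcdhgc4 stand far above the rest, Pcdhb16 and Pcdhb17 lead the beta genes, and the bars of the groups overlap for every gene.

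The other 3 C-types were far below these, within the range of the isoforms outside the C-types. In mean TPM each was still above the highest such isoform of its own cluster. Pcdhgc5 (4.55) and Pcdhgc3 (3.24) were above Pcdhga3 (2.97), and Pcdhac1 (3.11) was slightly above Pcdha4 (3.04). Per kb of own exon Pcdhac1, Pcdhgc5 and Pcdhgc3 stood at 1.70, 1.35 and 1.07 times the median of the isoforms outside the C-types (means over libraries). Pcdhgc5 (chr18:37819513-37841873) had 3.33, 4.19 and 6.05 TPM in eGFP and 3.59, 4.71 and 6.46 TPM in eGFP-GluA2 libraries. Pcdhac1 (chr18:37090013-37187657) had 2.25, 2.63 and 3.499 TPM in eGFP and 2.56, 3.51 and 4.404 TPM in eGFP-GluA2 libraries. Pcdhgc3 (chr18:37806364-37841873), the isoform known for its role in dendrite branching, had 2.28, 2.94 and 3.51 TPM in eGFP and 2.86, 3.25 and 5.96 TPM in eGFP-GluA2 libraries. The groups overlapped for each. The order among these 3 depends on the scale: Pcdhgc5 exceeded Pcdhac1 in 15 of 16 libraries in TPM but in 2 of 16 per kb of own exon, and Pcdhac1 exceeded Pcdhgc3 in 6 of 16 in TPM but in 16 of 16 per kb of own exon. Pcdhgc3 has 33.1% of its exon bases to itself and overlaps antisense BC037039.

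**Figure D3:**
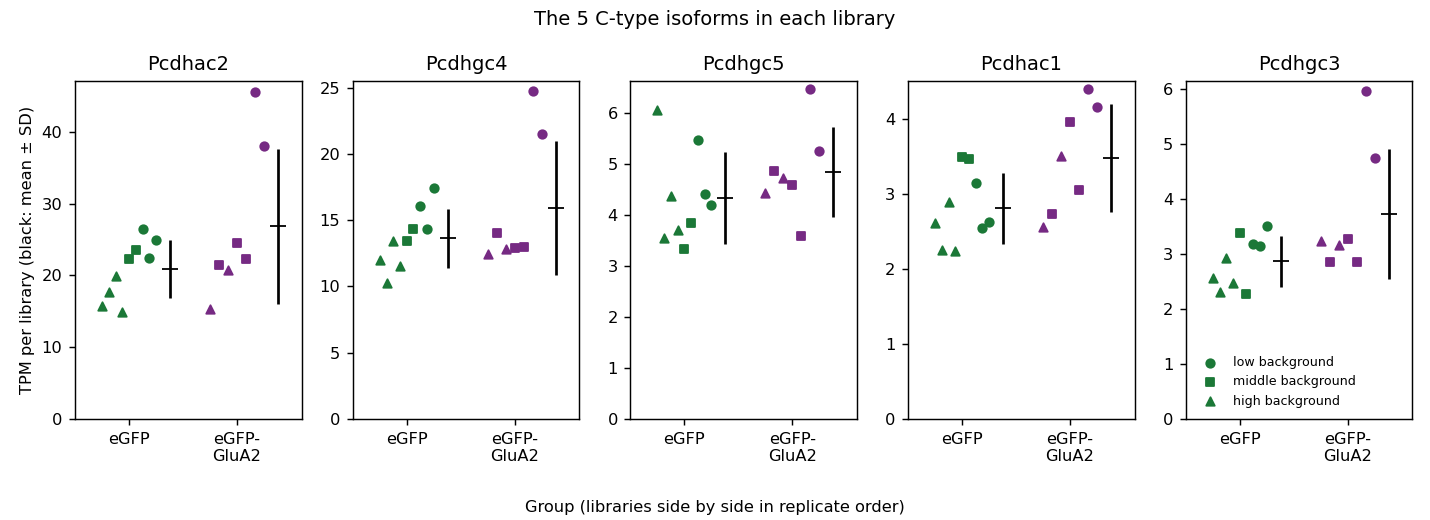
TPM of the 5 C-type isoforms (y axes, each from 0) in each eGFP and eGFP-GluA2 library, in replicate order; the marker shape gives the background level and black bars the mean ± SD. For Pcdhac2 and Pcdhgc4 the 2 low-background eGFP-GluA2 libraries lie above all eGFP libraries and the other 5 do not.

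The means of the remaining 52 isoforms ran from 0.194 TPM (Pcdhga10) to 5.81 TPM (Pcdhb17). Over all 57 genes, 48 had a mean of 1 to 4 TPM, 5 of 4 to 10, 2 of 10 or more and 2 (Pcdhb1 and Pcdhga10) under 1. Without C-types the median isoform stood at 2.296 TPM in the alpha cluster, 2.74 in the beta cluster and 2.303 in the gamma cluster, and per kb of own exon at 4.19, 3.34 and 3.79 CPM. The coefficient of variation of the TPM was 13.4 to 34.3% for 55 genes (median 22.5%), but 81.5% for Pcdhb1 and 128% for Pcdhga10.

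Among alternative alpha isoforms Pcdha4 (3.04 ± 0.51 TPM), Pcdha6 (2.89 ± 0.80) and Pcdha7 (2.76 ± 0.54) had the highest means and Pcdha1 (1.45 ± 0.31) the lowest (SD, n = 16). Pcdha4's place rests on the TPM estimate: per kb of own exon it was the lowest of the 12, at 1.91 CPM, and Pcdha7 the highest, at 5.75. Among gamma isoforms Pcdhga3 (2.97 ± 0.63 TPM), Pcdhga4 (2.90 ± 0.78) and Pcdhga7 (2.77 ± 0.79) had the highest means, and Pcdhga3 led per kb of own exon as well, with 5.23 CPM. The lowest gamma gene was Pcdhga10 at 0.194 ± 0.25 TPM, listed at 0 TPM in 4 libraries, and the next Pcdhga1 at 1.38 TPM; Pcdhga1 was also the lowest of the 17 gamma isoforms that have exon bases of their own, at 1.53 CPM per kb.

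The beta cluster, whose isoforms have no constant exons and are the most cleanly counted, was graded by position. Pcdhb17 (ENSMUSG00000046387, chr18:37484795-37489454, 1 exon) had 5.81 ± 1.31 TPM, Pcdhb16 (ENSMUSG00000047910, chr18:37477814-37483038, 1 exon) 5.43 ± 1.14 and Pcdhb20 4.15 ± 0.80 (SD, n = 16). Pcdhb17 exceeded Pcdhb16 in 14 of 16 libraries, by 1.07 ± 0.08 times, and Pcdhb20 and Pcdhb19 could not be ordered, with 8 of 16 libraries each way. The first 13 genes, Pcdhb1 to Pcdhb13, had a median of 1.98 TPM (0.416 to 2.93) and the last 9, Pcdhb14 to Pcdhb22, of 3.95 TPM (2.56 to 5.81). The median of the last 9 was 1.62 to 2.302 times that of the first 13 in each library in TPM, and 1.40 to 2.28 times per kb of own exon. The split at Pcdhb13 was placed after the levels were seen and carries no test.

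Summed over isoforms, the alpha cluster contributed 30.0 ± 2.46%, the beta cluster 35.4 ± 1.61% and the gamma cluster 34.6 ± 1.23% of the clustered protocadherin TPM (SD, n = 16). The 5 C-types contributed 27.4 ± 3.42%, from 20.7 to 31.7%, Pcdhac2 alone 13.04 ± 2.46% and Pcdhgc4 8.19 ± 0.93%. The C-type share was lowest in the libraries of high background. In TPM it was 30.4 ± 1.24% in the 5 low libraries, 28.8 ± 0.73% in the 5 middle ones and 23.7 ± 2.47% in the 6 high ones. In CPM it was 32.6 ± 1.67%, 32.5 ± 0.58% and 26.5 ± 2.71%, so that low and middle libraries were alike there. Pcdhac2 stood at 12.3 ± 1.39 times the median of the 52 other isoforms in low, 10.9 ± 0.40 in middle and 7.58 ± 1.61 in high libraries in TPM, a ratio within a library that no scaling between libraries touches. The ratio of Pcdhgc4 was 7.45 ± 0.27, 6.48 ± 0.50 and 5.22 ± 0.52, while that of Pcdhgc5 was 2.06 ± 0.26, 1.93 ± 0.31 and 1.92 ± 0.30.

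Over all libraries, C-types made up 26.7 ± 3.67% in eGFP (n = 9) and 28.2 ± 3.12% in eGFP-GluA2 libraries (n = 7), alpha genes 29.4 ± 2.47% and 30.7 ± 2.44%, beta genes 35.8 ± 1.603% and 34.9 ± 1.57%, and gamma genes 34.7 ± 1.16% and 34.4 ± 1.39%. Each of these differences is within 1 SD of either group. In the 5 libraries of low background the C-type share was higher by 2.15 and the alpha share by 2.29 percentage points in eGFP-GluA2 in TPM, and by 2.89 and 3.42 points in CPM. There the C-type share of the CPM was 34.3 and 34.4% in the 2 eGFP-GluA2 libraries and 31.0 to 32.3% in the 3 eGFP libraries, without overlap. So few libraries can easily separate by chance, here and for the sums below. In the middle and high libraries the C-type share differed by -0.46 and 0.65 points in TPM, and by -0.18 and 0.34 in CPM. The alpha share differed there by -0.45 and 0.24 points in TPM, and by 0.19 and 0.20 in CPM. The summed level of all 57 genes was 167 ± 16.5 TPM in eGFP and 192 ± 45.1 TPM in eGFP-GluA2 libraries, with overlap. In TPM the groups were separated at 1 background level. In the 5 low libraries the sum was higher in the 2 eGFP-GluA2 than in the 3 eGFP libraries, by 0.55 on the log2 scale, while in the middle and high libraries the differences were 0.02 and 0.06 with overlap. On counts the gap in the low libraries was smaller, 0.19 in CPM and 0.10 on TMM-scaled library sizes, still without overlap. With recovered reads it was 0.30, and there the middle libraries did not overlap either, at a difference of 0.05. For the PV markers (3132 TPM), the non-clustered protocadherins (309) and the 9 excitatory markers (61.9), the highest sum was also in 1 of these 2 low-background eGFP-GluA2 libraries. The part of this in the isoforms' TPM was not tested.

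No clustered protocadherin passed the test between the groups. In edgeR's quasi-likelihood test on the counts, 0 of the 55 genes that passed the count filter (all but Pcdha4 and Pcdhga10) had an adjusted p under 0.05, and 1, Pcdhgb1, an unadjusted p under 0.05. Over all genes 1 of 26257 was called, 0.00381%, so the test calls almost nothing in these libraries. DESeq2 called 0 of 57 and limma on log2(TPM + 0.5) 0 of 55, with 1 and 0 genes at an unadjusted p under 0.05. With the background level as a covariate, 0 of 55 were called against 0.0343% of all genes, 9 in number, Gria2 among them at a log2 difference of 0.69 ± 0.11 (SE, adjusted p = 0.0145); without the covariate Gria2 had 0.71 ± 0.16 and an adjusted p of 1.00 in edgeR.

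The tests bound the differences well for most isoforms. The log2 difference, eGFP-GluA2 minus eGFP, lay between -0.15 and 0.35 in the 54 tested genes other than Pcdhb1, and their 95% intervals all lay within -0.59 and 0.73. For 42 of 55 genes the interval was within 0.5 of 0 on the log2 scale. The differences were above 0 in 38 of 55 genes, with a median of 0.06 against -0.02 over all genes. Without eGFP-GluA2 replicate 4 that count was 25 of 55 and the median -0.01, so the lean to higher values was not seen in that fit.

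Among the C-types Pcdhac2 had a log2 difference of 0.22 ± 0.24 (SE; 95% interval -0.29 to 0.73), Pcdhac1 0.18 ± 0.18 (-0.20 to 0.57), Pcdhgc3 0.13 ± 0.18 (-0.25 to 0.50), Pcdhgc4 0.09 ± 0.20 (-0.34 to 0.51) and Pcdhgc5 0.07 ± 0.10 (-0.15 to 0.28). All had an adjusted p of 1.00 in edgeR's test, and every interval holds 0.

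The isoforms of smallest p did not pass either. Pcdhgb1, a gamma-B isoform, had 6.22, 8.20 and 9.88 CPM in eGFP and 9.03, 9.90 and 12.9 CPM in eGFP-GluA2 libraries (lowest, median, highest), so the upper eGFP libraries overlapped the lower eGFP-GluA2 ones. Its log2 difference was 0.35 ± 0.12 (SE, edgeR p = 0.00984, adjusted p = 1.00), and the authors' deposited table gives 0.21 ± 0.10 with an adjusted p of 1.00. Pcdhb13 had 0.20 ± 0.11, Pcdha12 0.30 ± 0.17, Pcdhb11 0.20 ± 0.12, Pcdha6 0.27 ± 0.19 and Pcdhga12 0.17 ± 0.14, all with an adjusted p of 1.00 in edgeR. Of the 57 genes, 0 have an adjusted p under 0.05 and 2 an unadjusted p under 0.05 in the authors' deposited table. In neither TPM nor CPM were the groups fully separated for any of the 57 genes. The shares of all genes separated, or called in the deposited table, were not counted. These counts are therefore no result about the isoforms in particular.

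**Figure D4:**
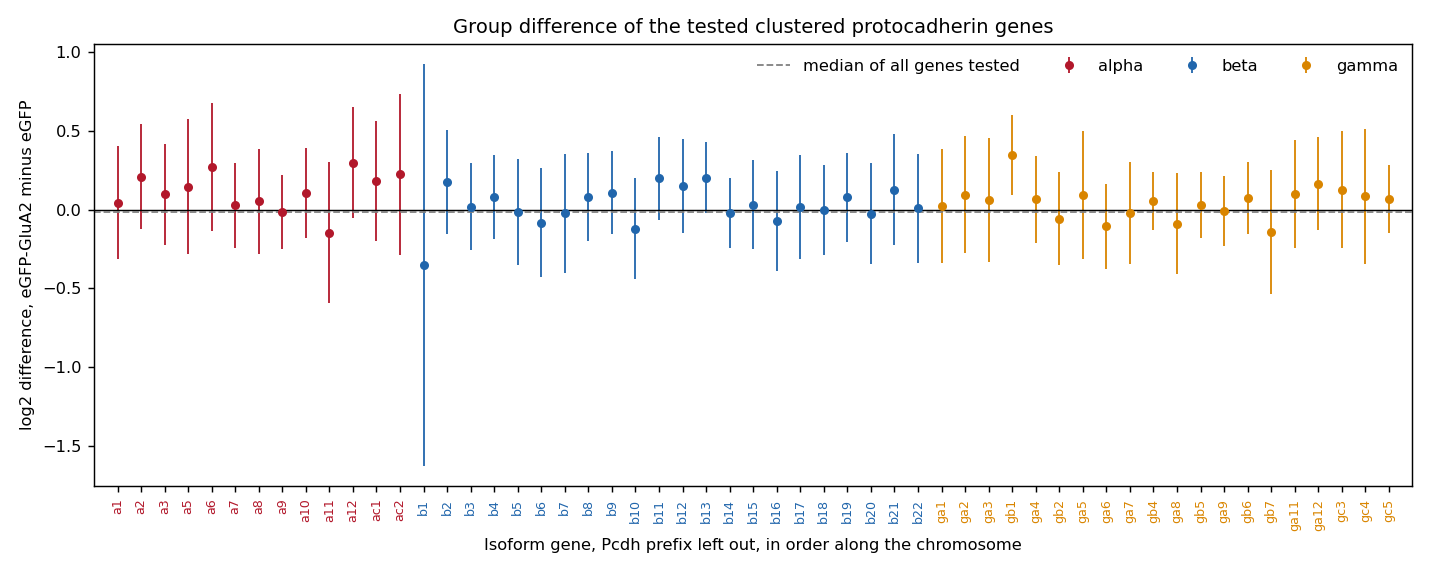
Log2 difference, eGFP-GluA2 minus eGFP (y axis), with its 95% interval from edgeR for the 55 tested genes in chromosomal order, coloured by cluster; the dashed line is the median of all genes tested, -0.02. Pcdhgb1 is the only gene whose interval leaves out 0, and Pcdhb1 has the widest interval.

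In each list of genes tied to the clusters, edgeR called 0 members at an adjusted p under 0.05. Over all genes it called 0.00381%, so 0 calls in lists this short say little about them. Of 19 genes that control promoter choice or silencing of the clusters, such as Ctcf, the cohesin subunits and DNA methyltransferases, 0 had an unadjusted p under 0.05, and the median log2 difference was -0.05; the 2 of smallest p in this and the following lists are named, here Dnmt1 (0.10 ± 0.12), the maintenance methyltransferase, and Smchd1 (-0.09 ± 0.11), a chromatin silencer. Ctcf itself stood at 10.1 ± 0.78 TPM in eGFP and 10.9 ± 2.70 TPM in eGFP-GluA2 libraries. Of 21 genes for intracellular partners and proteolytic processing the median was 0.02, with Ptk2b (Pyk2, a kinase that binds alpha and gamma isoforms) at 0.29 ± 0.19 and Axin1 at 0.13 ± 0.09. Of 12 non-clustered protocadherins the median was -0.01, with Pcdh20 at -0.23 ± 0.14 and Pcdh1 at 0.23 ± 0.19. Of 12 genes flanking the clusters the median was -0.02, with Rell2 at 0.24 ± 0.22 and Slc25a2 at -0.15 ± 0.26. All had an adjusted p of 1.00 in edgeR.

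Of the 12 non-clustered protocadherins, 3 had a mean above that of Pcdhac2 and 9 a lower one. Pcdh9 had 54.0 ± 12.1 TPM, Pcdh10 34.9 ± 11.7 and Pcdh7 33.4 ± 8.95 (SD, n = 16), while Pcdh12 and Pcdh18 had 0.607 ± 0.57 and 0.614 ± 0.24 TPM.

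More isoforms passed a test along the background level than between the groups. In a fit of counts on the log2 background level with the group as a covariate, 25 of 55 isoforms had a slope below 0 at an adjusted p under 0.05, where 31.4% of all genes did, and 1 a slope above 0, where 44% of all genes did. The median slope was -0.06 log2 units per doubling of the background, against 0.04 over all genes, and 54 of 55 lay below the median of all genes. Called slopes below 0 numbered 5 of 13 in the alpha, 15 of 22 in the beta and 5 of 20 in the gamma cluster. In the beta cluster they were 6 of the first 13 genes and 9 of the last 9, a split placed after the levels were seen. The last 9 averaged 139.5 to 371 counts per library and the first 13 averaged 15.4 to 155, so their numbers called are not like for like. The sign depends on the scaling: with upper-quartile scaling the median of all genes moved to 0.13, 14 isoforms were called above and 4 below 0, and 54 of 55 were still below the median of all genes. It depends on the libraries as well: without the 6 high libraries, an alternative chosen after seeing the data, 5 of 54 were called below and 3 above 0, and the median was 0.00 against -0.01 over all genes, with 25 of 54 below it. Without eGFP replicate 2, 16 were called below and 5 above 0. The counts called in these alternative fits are given without the shares of all genes, and so only compare settings.

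Pcdhac2 had the steepest slope below 0, at -0.17 ± 0.04 (SE, edgeR adjusted p = 3.66e-04), with 162 ± 26.4 CPM in low, 164 ± 7.81 in middle and 122 ± 16.2 in high libraries (SD). Pcdhgc4 followed at -0.16 ± 0.03 (adjusted p = 3.59e-05), with 76.1, 71.9 and 61.1 CPM, and then Pcdhb22 at -0.13 ± 0.02 (adjusted p = 8.55e-06) and Pcdhgc3 at -0.12 ± 0.03 (adjusted p = 4.05e-04). Both leading C-types were thus lower in the high libraries than in the others, and low and middle libraries differed less. Pcdhac1 (-0.07 ± 0.04, adjusted p = 0.0800) and Pcdhgc5 (-0.02 ± 0.02, adjusted p = 0.436) did not pass. In the gamma cluster Pcdhga3 had -0.11 ± 0.03 (adjusted p = 0.00412) and Pcdhga7 -0.10 ± 0.03 (adjusted p = 7.71e-04), and in the alpha cluster Pcdha5 -0.10 ± 0.04 (adjusted p = 0.0218) and Pcdha2 -0.08 ± 0.03 (adjusted p = 0.0148). The flattest were Pcdhgb4 (0.00 ± 0.02), Pcdhb6 (-0.01 ± 0.04) and Pcdha1 (-0.02 ± 0.04).

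**Figure D5:**
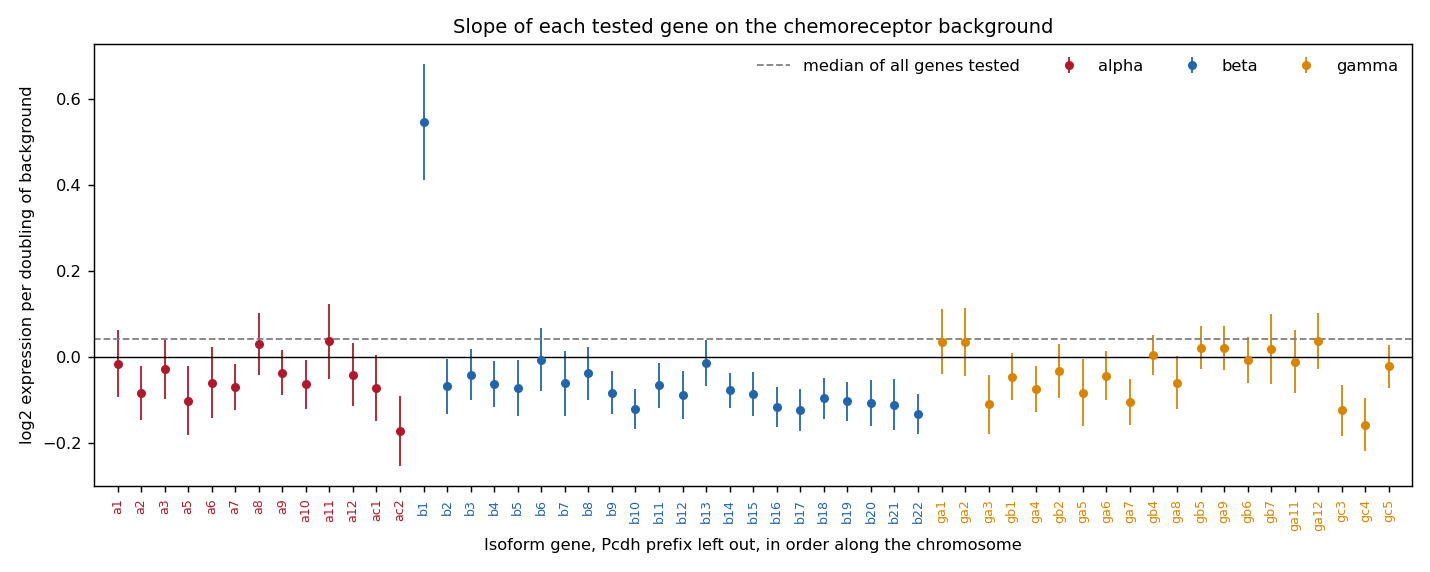
Change in log2 expression per doubling of the chemoreceptor background (y axis) with its 95% interval from edgeR, for the 55 tested genes in chromosomal order, coloured by cluster; the dashed line is the median of all genes tested, 0.04. Pcdhb1, at 0.55, is the only isoform above that line.

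Pcdhb1 (ENSMUSG00000051663, chr18:37264938-37267525, 1 exon), the first gene of the beta cluster, went the other way, with a slope of 0.55 ± 0.07 (edgeR adjusted p = 3.90e-08). Its level was 0.151 to 0.596 CPM in the 5 low libraries, 0.350 to 1.41 in the 5 middle ones and 1.92 to 4.19 in the 6 high ones, so that every high library exceeded every other library. In the low libraries this rests on 2 to 8 counts each. By group it had 0.151, 1.24 and 4.19 CPM in eGFP and 0.304, 1.08 and 3.49 CPM in eGFP-GluA2 libraries (lowest, median, highest), with full overlap. The mean of 3.15 CPM in high libraries was 9.92 times that of 0.318 CPM in low ones.

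Of the PV markers, 10 of 10 had a called slope below 0 (median -0.19), as had 16 of 19 regulators (median -0.09), 18 of 21 partner and processing genes (-0.14) and 8 of 12 non-clustered protocadherins (-0.12), against 31.4% of all genes below 0 and 44% above. The markers of other cells went both ways. Called slopes were above 0 for 6 and below 0 for 2 of 9 excitatory markers, 2 and 3 of 7 markers of other interneuron classes, 4 and 1 of 6 astrocyte markers and 1 and 3 of 5 oligodendrocyte markers. They were above 0 for 2 of 2 oligodendrocyte precursor, 3 of 5 microglia and 4 of 5 endothelial and mural markers, and below 0 for 0 of these. Summed over each library, the PV markers had 1981 to 3132 TPM in low and 1101 to 1495 TPM in high libraries, and those of other interneuron classes 143 to 227 and 93.5 to 133 TPM. Excitatory markers had 35.2 to 61.9 and 30.8 to 48.6 TPM, oligodendrocyte markers 21.9 to 43.6 and 17.998 to 36.4, astrocyte markers 19.4 to 26.1 and 16.1 to 36.9, and microglia markers 2.39 to 7.61 and 3.01 to 6.95, all with overlap. Oligodendrocyte precursor markers had 0.311 to 0.631 and 1.79 to 5.66 TPM and endothelial and mural markers 2.81 to 4.42 and 6.15 to 15.3 TPM, without overlap. Single-exon protein-coding genes, the form of most beta genes, had a median slope of 0.01 (481 genes) and multi-exon protein-coding genes of -0.03 (16780 genes). The part of depth, purity, genomic DNA or RNA quality in the isoforms' slopes was not tested.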

How the data were processed

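Polyadenylated RNA of 16 sorted samples was read as 150-bp pairs. Per the labels' protocols, reads were processed with bcbio-nextgen 1.2.3, aligned to GRCm38 with STAR and counted per gene with Sailfish, and DESeq2 was used for differences. The authors deposited whole-number gene counts, TPM values and a table of normalized counts (signal) with log2 fold changes, test scores and p-values of their own comparison, in which the authors gave each log2 value, score and p-value per gene. Counts and TPM come from separate quantifications, and no source used here says how reads in shared exons were assigned or whether strand was used.

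Gene names are from GENCODE M21 (54409 of 54532 identifiers matched); M21 gives Pcdha11 to 2 genes, and RefSeq on GRCm38 named Pcdha10. Counts were tested with edgeR 4.0.16 (TMM scaling, expression filter by group, which kept 26257 genes and 99.2% of counts, robust quasi-likelihood test, Benjamini-Hochberg adjustment over all genes tested, threshold 0.05). Alternatives used limma 3.58.1 and DESeq2 1.42.0. Reads were recovered from the normalized values as multiples of each library's step (100% whole within 0.001). The fits were also run on simulated counts, in which few genes followed the background, unlike here. That run does not show what the fit between the groups can detect in these libraries. No test was made on sums or shares. Samples were grouped by genotype label; p-values measure the spread between mice as labelled.

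The isoforms and the gene lists were chosen with earlier results of these data known. Named genes are all C-types, per cluster the 3 highest and 1 lowest in TPM, the 2 of smallest p, the 2 steepest and 1 flattest slope, and the 2 of smallest p of each list; others are named after their values were seen. No sequences are shown.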

Additional observations from a re-analysis of the deposited data

Results flagged for a closer look

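Of 72 sets of values (named isoforms, cluster sums and shares, per group), 4 held a library far from the rest of its group, where chance flags about 1 in 20. The summed TPM of all 57 genes was 130.3 in eGFP replicate 2, below the next eGFP library at 159. Pcdhga4 had 5.13 TPM in eGFP replicate 1, above the next at 3.54. Pcdhb11 had 3.94 TPM in eGFP-GluA2 replicate 6, above the next at 3.16. Pcdhga10 had 0.597 TPM in eGFP replicate 7, above the next at 0.200; none of its exon bases are its own.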

How the results depend on the processing

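The count of isoforms called between the groups was 0 in each of the 11 other fits and the 16 fits without 1 library. It is given without the shares of all genes and only compares settings. For replicate numbers 1 to 7 the correlations of deviations between the groups were 0.89, 0.63, 0.89, -0.03, 0.19, 0.21 and 0.90. Of these 7 numbers, 2 had the highest correlation with their own number. The deviations still hold the differences in background level, so they cannot tell whether samples were paired by number. With number as a replicate block 0 of 55 isoforms were called, and 8 genes in all. Slopes below 0 numbered 4 with upper-quartile scaling, 7 with limma on log2(TPM + 0.5) and 5 without the 6 high-background libraries (chosen after seeing the data), and 16 to 28 without 1 library each; slopes above 0 numbered 14, 1 and 3, and 1 to 5. These counts are given without the shares of all genes and only compare settings. Signs turned for the following slopes. With upper-quartile scaling Pcdha1 had 0.072, Pcdha2 0.0019, Pcdhac1 0.013, Pcdhb6 0.081 and Pcdhgc5 0.066. Without the 6 high-background libraries they had 0.074, 0.016, 0.071, 0.023 and 0.034, Pcdha5 0.013 and Pcdhgb4 -0.0048. Pcdha1 had 0.0022 and Pcdhb6 0.011 with RLE scaling, Pcdhb6 0.048 with limma and 0.031 with recovered reads, and Pcdhgb4 -0.0011 without a filter. Without 1 library each, Pcdha1 ranged from -0.058 to 0.022, Pcdhb6 from -0.037 to 0.026, Pcdhgb4 from -0.0095 to 0.040 and Pcdhgc5 from -0.040 to 0.011. The alpha share was 35.2% with recovered reads, the beta share 38.6% with CPM and 29.7% with recovered reads, the gamma share 30.6% with CPM and the C-type share 32.5% with recovered reads. In low-background libraries alone, the log2 group differences of summed TPM were 0.65 for alpha, 0.49 for beta, 0.50 for gamma and 0.65 for C-type genes, against 0.24, 0.13, 0.16 and 0.25 over all libraries. The cause of these shifts was not tested. Depth limits Pcdhb1, with 15.4 counts per library. Pcdha4 and Pcdhga10 average 8.06 and 0.188 counts but 164 and 16.3 recovered reads, and share most or all exon bases with other genes.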
